A study of Rattus norvegicus with 18 samples.

Results

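Aqp1, Aqp4 and Aqp7, the aquaporin genes with more than trace counts in rat tibialis anterior, a fast hindlimb muscle, were followed through 18 bulk RNA-seq libraries. They are 3 of the 30560 entries of the deposited count table, and all 3 passed the filter on low counts in every comparison. The set was taken up with earlier results of these data in view. Aqp4 was chosen by its measured near loss in DMD muscle against WT muscle of the same age, so that contrast is described here without a test, and Aqp1 and Aqp7 were added as its family members. Another 10 entries carry aquaporin symbols and held few or no counts.

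The study set 9-month-old p16-null DMD rats (6 libraries) and 9-month-old DMD rats (3 libraries) against 9-month-old WT rats (3 libraries), and 18-month-old WT rats (3 libraries) against 3-month-old WT rats (3 libraries). DMD rats are a model of Duchenne muscular dystrophy, the muscle disease caused by loss of dystrophin, and p16-null DMD rats lack p16, an inhibitor of the cell cycle, as well. The p16-null group thus shares the DMD genotype with the DMD group. The labels give no strain, sex, treatment or description of either allele, and they do not say whether each library came from a separate rat, so p-values measure the spread between libraries. Total RNA came from frozen sections of whole muscle, and in such bulk samples fewer cells of a type cannot be told apart from less RNA per cell.

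Aquaporins are membrane channels that let water pass along osmotic gradients, and the aquaglyceroporins among them, Aqp7 included, also pass glycerol. Aqp4 is the water channel of the sarcolemma of fast-twitch fibres, where it is held in place through the dystrophin complex. Aqp1 lies in the endothelium of capillaries and in red blood cells. Aqp7 carries glycerol out of adipocytes.

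Library totals ran from 9.61 to 21.99 M (mega) counts. Levels are given as CPM, counts per 1 M counts of the library after scaling by TMM, a method that assumes most genes do not differ between libraries, or as TPM, which also divides by transcript length. Dmd, the dystrophin gene, had 30.9 to 54.1 CPM in p16-null DMD and 31.4 to 44.3 CPM in DMD libraries, against 114 to 167 CPM in WT libraries of 9 months. Cdkn2a, the gene of p16, had 10.1 to 15.3 CPM in p16-null DMD and 10.7 to 19.4 CPM in DMD libraries. That row also counts reads of the other product of the gene, so it does not check the p16-null label. The fast fibre markers, 9 contractile and metabolic genes of fast-twitch fibres, had counts in all 18 libraries.

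The RefSeq promoter table (build GRCr8, while the counts rest on mRatBN7.2) held windows for 2 of the 3 genes, from 250 bases before to 50 bases after the start. They are shown because Aqp4 and Aqp1 both had lower levels in dystrophic muscle and because Aqp4 has 2 listed starts, between which a count per gene cannot choose. The windows are Aqp1 at chr4:85812534-85812833 on the plus strand, and Aqp4 at chr18:6798793-6799092 and chr18:6797877-6798176 on the minus strand. Capitals mark matches, on either strand, to the TATA box letters TATAAA, the E-box letters CANNTG and the MEF2 letters TAAAAATA, and none of the marked matches overlap.
Aqp4 start 1: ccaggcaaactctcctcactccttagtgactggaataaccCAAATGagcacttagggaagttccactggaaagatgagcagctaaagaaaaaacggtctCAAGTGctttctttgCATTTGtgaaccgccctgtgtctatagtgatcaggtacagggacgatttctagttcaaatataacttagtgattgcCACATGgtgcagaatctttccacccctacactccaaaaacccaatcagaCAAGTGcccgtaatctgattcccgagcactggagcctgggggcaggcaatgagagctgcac
Aqp4 start 2: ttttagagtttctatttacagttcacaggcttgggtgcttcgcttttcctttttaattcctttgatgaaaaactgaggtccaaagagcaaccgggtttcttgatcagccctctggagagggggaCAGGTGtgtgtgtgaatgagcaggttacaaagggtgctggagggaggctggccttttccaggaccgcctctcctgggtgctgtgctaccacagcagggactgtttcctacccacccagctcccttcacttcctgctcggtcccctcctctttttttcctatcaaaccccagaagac
Aqp1: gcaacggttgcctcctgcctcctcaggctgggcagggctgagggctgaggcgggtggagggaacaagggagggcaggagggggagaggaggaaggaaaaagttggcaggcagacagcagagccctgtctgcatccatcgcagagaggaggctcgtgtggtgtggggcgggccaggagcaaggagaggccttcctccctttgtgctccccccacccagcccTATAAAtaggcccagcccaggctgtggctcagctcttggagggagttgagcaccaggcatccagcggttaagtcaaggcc
The window of Aqp4 start 1 held 5 E-box matches and that of start 2 held 1, while 72.1% of all 33469 windows in the table held at least 1. The Aqp1 window held no E-box letters and 1 TATA box match, whose first base lies 30 bases before the start. A TATA box match was present in 14.2% of all windows. None of the 3 windows held TAAAAATA, present in 2.69% of all windows, or CAGCTG, the E-box form that MyoD is known to prefer, present in 15.1%. These are matches of letters and not sites of binding. In the RefSeq gene table of the same build no other gene overlaps Aqp1, Aqp4 or Aqp7.

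Aqp4 was nearly absent from dystrophic muscle and lower in old than in young WT muscle. It had 5.37, 4.22, 0.685, 12.5, 5.82 and 1.36 CPM in the p16-null DMD libraries and 3.98, 1.07 and 2.29 CPM in the DMD libraries. The WT libraries had 199.5, 239 and 225 CPM at 3 months, 191, 197 and 179 CPM at 9 months, and 36.3, 89.3 and 73.0 CPM at 18 months. The 2 dystrophic groups overlapped, and the highest dystrophic library, p16-null DMD replicate 4, lay below the lowest WT library, WT 18 months replicate 1. The dystrophic libraries still held 12 to 286 Aqp4 counts each, above the floor of 3 counts below which a value was not interpreted.

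**Figure D1:**
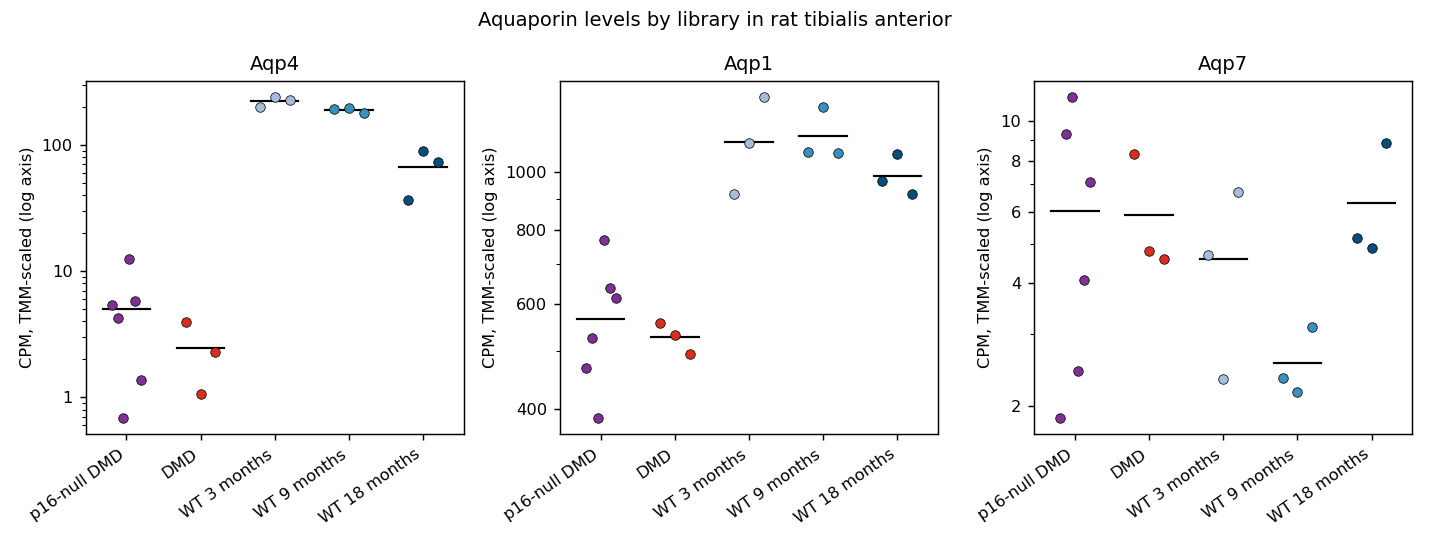
Levels of Aqp4, Aqp1 and Aqp7 in each of the 18 libraries, as TMM-scaled CPM on a log axis. Points are libraries and bars are group means. Aqp4 averaged 4.99 CPM in p16-null DMD and 2.45 CPM in DMD libraries, against 221, 189 and 66.2 CPM in WT at 3, 9 and 18 months. The Aqp7 groups overlap widely.

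Against WT of 9 months, Aqp4 fell in p16-null DMD muscle. It averaged 4.99 ± 4.22 CPM in p16-null DMD (SD, n = 6) and 189 ± 9.43 CPM in WT (SD, n = 3), and the groups did not overlap. The fitted level was 37.3 times lower, a log2 fold change of -5.22 ± 0.54 (SE), with an adjusted p of 3.07e-06 in edgeR's quasi-likelihood test with Benjamini-Hochberg adjustment. It was the fourth lowest fold change of the 14801 genes tested. Of the 3 aquaporins, 2 passed the threshold of 0.05 on the adjusted p here, both lower, in a comparison in which 50.2% of all tested genes passed it. These WT libraries are the ones in which Aqp4 was first singled out against DMD. P16-null DMD replicate 4 was the highest of its group, and without it the log2 fold change was -5.79.

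In DMD against WT of 9 months, the contrast that singled out Aqp4, it averaged 2.45 ± 1.46 CPM in DMD and 189 ± 9.43 CPM in WT (SD, n = 3 each). The fitted level was 78.3 times lower, the third lowest fold change of the 14801 genes. Aqp1 averaged 529 ± 31.3 CPM in DMD and 1146 ± 120 CPM in WT, 2.16 times lower in DMD. Aqp7 averaged 5.90 ± 2.10 CPM in DMD and 2.54 ± 0.511 CPM in WT, 2.31 times higher in DMD. Among all genes tested, 48.3% passed the threshold in this contrast. Nothing is read from these values, which chose the members.

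Another comparison set p16-null DMD of 9 months against WT of 3 and 18 months together, and neither side holds a library of that contrast. Its fit used all 18 libraries, so filter, scaling and spread drew in part on the libraries that singled out Aqp4. Genotype and age both differ in this comparison and cannot be told apart. Aqp4 was 23.8 times lower in p16-null DMD than in the mean of these WT groups (log2 fold change -4.57 ± 0.45 SE, edgeR adjusted p = 8.98e-08), the fifth lowest of 14982 genes. Aqp1 was 1.86 times lower (-0.89 ± 0.15, adjusted p = 3.51e-05). Aqp7 did not pass (0.17 ± 0.38, adjusted p = 0.731). Of all genes tested 52.8% passed the threshold, so 2 called aquaporins of 3 stand near the background.

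With age, Aqp4 fell in WT muscle. It averaged 66.2 ± 27.2 CPM at 18 months and 221 ± 20.1 CPM at 3 months (SD, n = 3 each), and the groups did not overlap. The fitted level was 3.33 times lower at 18 months, a log2 fold change of -1.73 ± 0.23 (SE, edgeR adjusted p = 0.000141). WT 18 months replicate 1 was the lowest at 36.3 CPM, and without it the log2 fold change was -1.44. Aqp4 alone of the 3 aquaporins passed the threshold, in a comparison in which 19.4% of 13487 tested genes did. Its fold change ranked 83 from the low end. The WT libraries of 9 months lay at 179 to 197 CPM, just below those of 3 months in CPM, while in TPM those ranges overlapped.

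Between p16-null DMD and DMD, Aqp4 averaged 4.99 ± 4.22 CPM in p16-null DMD (n = 6) and 2.45 ± 1.46 CPM in DMD (n = 3), and the groups overlapped. The log2 fold change was 1.07 ± 0.64 (SE, edgeR adjusted p = 0.939). These DMD libraries are the ones whose low Aqp4 singled out the gene, so the estimate may lean towards p16-null DMD being higher. None of the 3 aquaporins passed the threshold, and only 0.00676% of all tested genes, 1 gene, did. Aqp1 had a log2 fold change of 0.10 ± 0.19 (adjusted p = 0.987) and Aqp7 of 0.05 ± 0.48 (adjusted p = 0.994). At an unadjusted p under 0.05 edgeR found 764 of 14801 genes, near the share that such a threshold passes by chance. DESeq2 called 15 genes, and none of the genes in either count was an aquaporin followed here. A difference of the size of the Aqp4 estimate could not be told from the spread between these libraries.

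Fold changes of Aqp4 were larger than those of each tested marker of the fibres that carry it, without a test of the difference. The summed level of the 9 fast fibre markers was 26359 to 43813 CPM in p16-null DMD and 27959 to 47427 CPM in DMD, against 94086 to 96309, 103534 to 107474 and 60606 to 68354 CPM in WT of 3, 9 and 18 months. All 9 fell in p16-null DMD against WT of 9 months (6 by library totals and 6 in TPM), among them the fast myosin heavy chain Myh4 (log2 fold change -1.96) and the fast troponin C Tnnc2 (-1.78). With age, 7 of the 9 fell at 18 against 3 months (4 by library totals and 2 in TPM), among them the fast alpha-actinin Actn3 (-1.22). Of all tested genes 22.7% fell in p16-null DMD against WT of 9 months and 10.1% fell with age, with TMM. Measured against the mean log2 CPM of these markers in the same library, Aqp4 stood at -9.28 ± 1.27 in p16-null DMD (SD, n = 6) and -9.92 ± 1.17 in DMD, against -5.003 ± 0.103, -5.25 ± 0.03 and -6.22 ± 0.62 in WT of 3, 9 and 18 months (SD, n = 3 each). The dystrophic groups again lay below every WT library, and the part of the fibre markers in the change of Aqp4 was not tested.

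**Figure D2:**
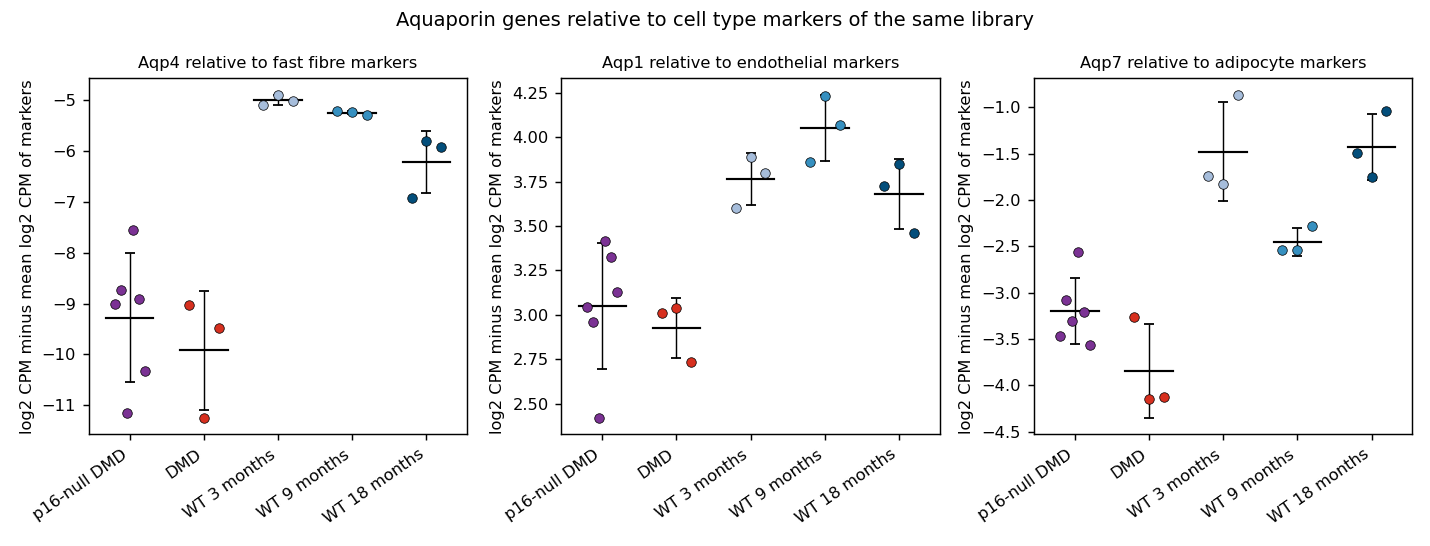
Each aquaporin relative to markers of a cell type known to carry it, as log2 CPM of the gene minus the mean log2 CPM of the markers in the same library. Points are libraries, bars are means and error bars are SD. Aqp4 relative to fast fibre markers averaged -9.28 in p16-null DMD and -5.25 in WT of 9 months, and Aqp7 relative to adipocyte markers averaged -3.20 in p16-null DMD and -2.45 in WT of 9 months.

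Some other markers rose in the comparisons in which Aqp4 fell. Regenerating fibre markers, genes of embryonic and newly formed fibres, summed to 794 to 1583 CPM in p16-null DMD and 811 to 1422 CPM in DMD, against 112 to 123, 113 to 174 and 808 to 877 CPM in WT of 3, 9 and 18 months. All 9 tested rose at 18 against 3 months, among them the muscle transcription factor Myog (log2 fold change 4.53 ± 0.21 SE, edgeR adjusted p = 3.73e-09), the fusion factor Mymx (6.85) and the adhesion molecule Ncam1 (4.60). The WT groups with little of these transcripts, 3 and 9 months, are those with the most Aqp4. Macrophage markers summed to 1673 to 4655 CPM in p16-null DMD and 2396 to 3750 CPM in DMD, against 354 to 549, 393 to 434 and 649 to 943 CPM in WT of 3, 9 and 18 months. All 10 macrophage markers rose in p16-null DMD against WT of 9 months and 9 of 10 at 18 against 3 months. Of 10 slow fibre markers, 3 rose and 1 fell in p16-null DMD (5 and 0 by library totals and in TPM), and 3 rose and none fell at 18 months. Of 7 Schwann cell markers, 2 rose and none fell in p16-null DMD, and none rose and 2 fell at 18 months (0 in TPM). Over all tested genes 27.5% rose in p16-null DMD against WT of 9 months and 9.31% at 18 against 3 months, so the slow fibre and Schwann cell counts in p16-null DMD stand near the background. The part of these cells in the Aqp4 values was not tested.

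Genes of the complex that holds Aqp4 at the sarcolemma had smaller fold changes than Aqp4. The list of the dystrophin complex and Aqp4 anchoring holds 20 genes, 17 of which passed the filter on low counts. Of the 17, 10 fell and 2 rose in p16-null DMD against WT of 9 months, with a median log2 fold change of -0.44 against 0.11 over all genes tested. The split turned with the scaling, to 5 lower and 6 higher by library totals and 3 lower and 6 higher in TPM, where the median gene stood at 0.72 and 0.64. With TMM 22.7% of all tested genes fell and 27.5% rose. Dmd averaged 42.5 ± 8.33 CPM in p16-null DMD (SD, n = 6) and 140.2 ± 26.9 CPM in WT (SD, n = 3), a log2 fold change of -1.71 ± 0.18 (SE, edgeR adjusted p = 3.11e-06). The beta-sarcoglycan gene Sgcb changed by -1.53 ± 0.12. Dtnb, beta-dystrobrevin, averaged 5.003 ± 0.436 CPM in p16-null DMD and 0.956 ± 0.343 CPM in WT, a rise of 2.42 ± 0.32. The other that rose was Trpv4, an osmosensitive calcium channel, at 2.02 ± 0.37. All of these are smaller changes than the -5.22 of Aqp4, without a test of the difference.

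Against WT of 3 and 18 months the same list had 9 lower and 2 higher of 17, which became 6 and 6 by library totals, with Nos1, the neuronal nitric oxide synthase bound to the complex, at -2.08 ± 0.23. In the DMD contrast that singled out Aqp4, the list had 11 lower and 2 higher of 17, which became 5 lower and 4 higher by library totals and 4 lower and 6 higher in TPM. With TMM 23.5% of all genes were lower and 29.3% higher in the former comparison, and 21.8% and 26.4% in the DMD contrast. Between p16-null DMD and DMD none of the 17 passed, and Dmd stood at 0.21 ± 0.19 (edgeR adjusted p = 0.974).

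At 18 against 3 months the list had 5 lower and 2 higher of 17, with a median log2 fold change of -0.08 against 0.00 over all genes. By library totals 3 were lower and 3 higher, and in TPM 2 lower and 4 higher. With TMM 10.1% of all tested genes were lower and 9.31% higher. Dmd rose, with 179 ± 29.7 CPM at 18 months and 102 ± 8.74 CPM at 3 months (log2 fold change 0.82 ± 0.14, edgeR adjusted p = 0.000937), and so did utrophin, Utrn, its homologue (0.51 ± 0.13). Sntb1, beta-1-syntrophin, fell by 1.61 on the log2 scale, Cav3, the muscle caveolin, by 1.60, and Sgcb by 0.81 (in TPM by 0.45, adjusted p = 0.123). Aqp4 thus fell while the transcript of dystrophin was higher.

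**Figure D3:**
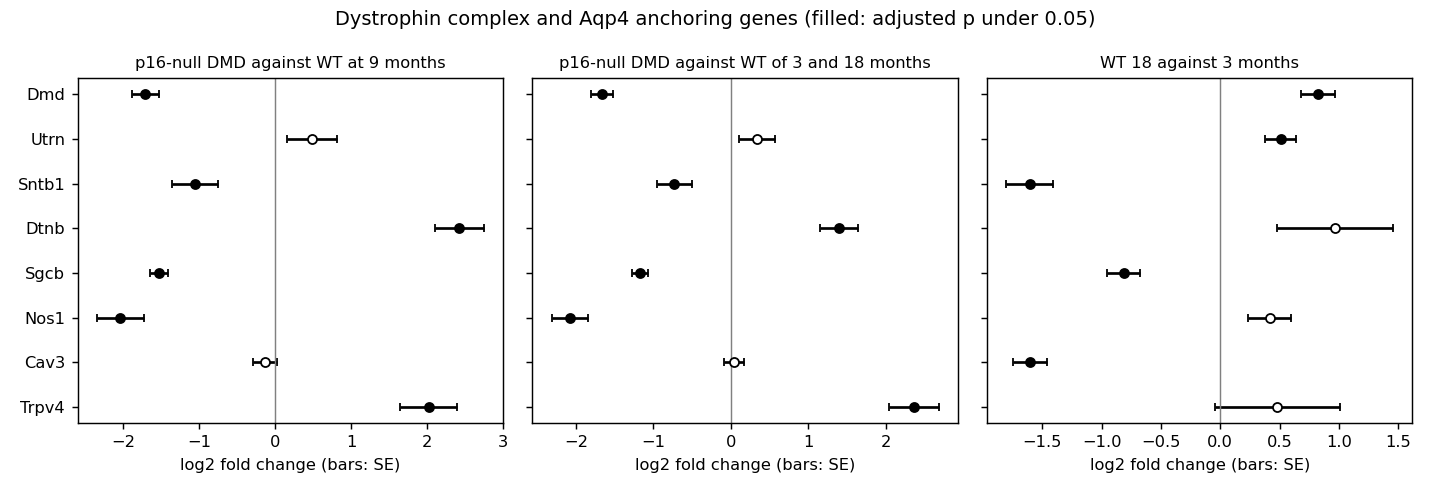
Log2 fold changes with SE of the 8 genes of the dystrophin complex and Aqp4 anchoring list that are named with values in the text, in 3 comparisons. Filled points passed an adjusted p of 0.05. Dmd was lower in both p16-null DMD panels (-1.71 and -1.66) and higher at 18 months (0.82).

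Kcnj10, the potassium channel that lies beside Aqp4 in glia, did not pass the filter, with 18 counts over the p16-null DMD libraries, 12 over the DMD libraries, and 6, 9 and 15 over the WT libraries of 3, 9 and 18 months.

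Genes of cell volume and ion transport, the setting in which a water channel works, moved in both directions. Of the 29 listed genes, 10 rose and 10 fell in p16-null DMD against WT of 9 months (18 and 7 by library totals, 18 and 5 in TPM). With TMM 27.5% of all tested genes rose and 22.7% fell. Clcn1, the chloride channel of the muscle membrane, averaged 24.9 ± 9.20 CPM in p16-null DMD (SD, n = 6) and 130.4 ± 6.19 CPM in WT (SD, n = 3), a log2 fold change of -2.39 ± 0.23 (SE, edgeR adjusted p = 1.64e-06). Kcnj11, the pore of the ATP-sensitive potassium channel, changed by -2.33 ± 0.23. Atp1b4, a muscle member of the sodium pump beta family, rose by 3.88 ± 0.37. Against WT of 3 and 18 months 12 of the 29 rose and 10 fell (19 and 8 by library totals). With age, 5 of 27 tested rose and 5 fell (9 and 5 by library totals, 18 against 3 months). Of all tested genes 29.3% rose and 23.5% fell in the former comparison, and 9.31% and 10.1% with age. Clcn1 fell by 0.98 there and Kcnj11 by 1.09 on the log2 scale. Between p16-null DMD and DMD none of the 29 passed.

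Aqp1 was by far the most abundant aquaporin of this muscle. It made up 89.4 to 98.1% of the summed TPM of all aquaporin entries in a library. In TPM it averaged 422 ± 75.6 in p16-null DMD (SD, n = 6) and 400 ± 36.1 in DMD, against 477 ± 41.6, 507 ± 31.6 and 544 ± 51.6 in WT of 3, 9 and 18 months (SD, n = 3 each). Aqp4 made up 0.0868 to 0.794% of that sum in p16-null DMD and 0.102 to 0.346% in DMD, against 7.68 to 9.60%, 7.11 to 7.98% and 1.83 to 3.86% in WT of 3, 9 and 18 months. Its TPM averaged 1.82 in p16-null DMD and 0.96 in DMD, against 47.0, 41.6 and 17.8 in WT of 3, 9 and 18 months.

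In CPM, Aqp1 had 469, 526, 386, 769, 638 and 613 in the p16-null DMD libraries and 557, 533 and 495 in the DMD libraries. The WT libraries had 918, 1117 and 1334 at 3 months, 1081, 1285 and 1074 at 9 months, and 964, 1073 and 917 at 18 months. Every dystrophic library lay below every WT library in CPM, and the WT ages overlapped. In TPM the p16-null DMD libraries, at 311 to 517, overlapped the WT libraries of 9 months, at 475 to 538.

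Against WT of 9 months Aqp1 fell in p16-null DMD, with 567 ± 136 CPM in p16-null DMD (SD, n = 6) and 1146 ± 120 CPM in WT (SD, n = 3). The log2 fold change was -1.01 ± 0.18 (SE, edgeR adjusted p = 0.000305). The size and the call depended on the scaling. By library totals the change was -0.41 (adjusted p = 0.0449), and in limma on log2(TPM + 1) it was -0.28 (adjusted p = 0.142). Under these scalings the median of all genes stood at 0.72 and 0.64, against 0.11 with TMM. Relative to the median gene, Aqp1 was lower by similar amounts: -1.12 with TMM, -1.13 by library totals and -0.93 in TPM. At 18 against 3 months Aqp1 did not pass (-0.18 ± 0.14 SE, adjusted p = 0.43), and its sign turned to 0.06 by library totals and 0.19 in TPM.

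**Figure D4:**
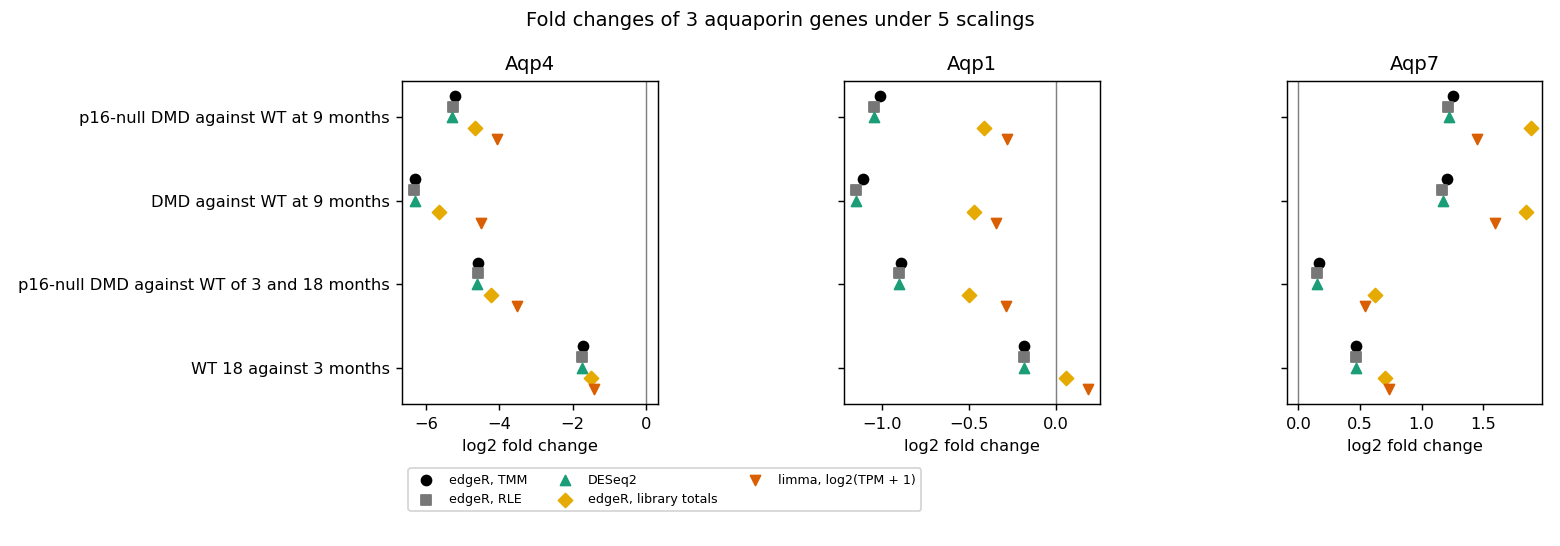
Log2 fold changes of Aqp4, Aqp1 and Aqp7 in 4 comparisons under 5 ways to scale the libraries: p16-null DMD and DMD against WT of 9 months, p16-null DMD against WT of 3 and 18 months, and WT of 18 against 3 months. Aqp4 is lower in each of these 4, from -4.07 to -5.28 in p16-null DMD against WT of 9 months in the scalings drawn. Aqp1 in the same comparison runs from -1.05 to -0.28.

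Markers of endothelium, which carries Aqp1, did not fall as a set with it in p16-null DMD against WT of 9 months. The 11 endothelial markers summed to 817 to 981 CPM in p16-null DMD and 848 to 975 CPM in DMD, against 989 to 1251, 826 to 977 and 979 to 1112 CPM in WT of 3, 9 and 18 months. Of the 11, 2 rose and 2 fell in p16-null DMD against WT of 9 months, while by library totals 7 rose and none fell. With TMM their median log2 fold change was 0.01, against 0.11 over all tested genes, of which 27.5% rose and 22.7% fell. Pecam1, an adhesion molecule of endothelium, rose (0.44 ± 0.15 SE, edgeR adjusted p = 0.0201), and so did Vwf (0.63), while the growth factor receptor Kdr (-0.70) and the sialomucin Emcn (-0.61) fell with TMM and did not pass by library totals (-0.09 and 0.00). Against WT of 3 and 18 months 1 of the 11 rose and 3 fell (4 and 2 by library totals). Their median there was -0.26 against 0.09 over all tested genes, of which 29.3% rose and 23.5% fell. In DMD against WT of 9 months none rose and 2 fell (7 and 0 by library totals), beside 26.4% and 21.8% of all tested genes. Relative to the mean log2 CPM of these markers, Aqp1 stood at 3.05 ± 0.35 in p16-null DMD (SD, n = 6) and 2.93 ± 0.17 in DMD, against 3.76 ± 0.15, 4.05 ± 0.19 and 3.68 ± 0.20 in WT of 3, 9 and 18 months (SD, n = 3 each).

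Red blood cell transcripts moved more. The 8 red blood cell markers with an entry summed to 226 to 417 CPM in p16-null DMD and 149 to 275 CPM in DMD, against 738 to 1590, 1048 to 1312 and 192 to 242 CPM in WT of 3, 9 and 18 months. The 3 globin genes tested all fell in p16-null DMD against WT of 9 months, among them Hba-a2 (-1.95 ± 0.21 SE, edgeR adjusted p = 4.66e-06). All 3 also fell at 18 against 3 months, with Hba-a2 at -2.40 ± 0.23, while Aqp1 did not pass there. Of all tested genes 22.7% fell in the former comparison and 10.1% in the latter. Up to 4 of the 8 markers were at 0 in a library. The part of endothelial or blood transcripts in the Aqp1 values was not tested.

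Aqp7 was a low transcript that varied most within the p16-null DMD group. It had 1.87, 9.31, 11.5, 2.44, 4.07 and 7.08 CPM in the p16-null DMD libraries and 8.32, 4.80 and 4.59 CPM in the DMD libraries. The WT libraries had 4.70, 2.34 and 6.72 CPM at 3 months, 2.35, 2.16 and 3.12 CPM at 9 months, and 5.16, 4.89 and 8.85 CPM at 18 months. P16-null DMD libraries lay both below and above all WT libraries. In TPM it averaged 10.6 in p16-null DMD and 10.1 in DMD, against 4.37, 2.57 and 7.78 in WT of 3, 9 and 18 months, so that per length its mean was above that of Aqp4 in both dystrophic groups and below it in every WT group. P16-null DMD replicate 4 was the 1 dystrophic library with less Aqp7 (3.78 TPM) than Aqp4 (4.18 TPM).

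Against WT of 9 months Aqp7 averaged 6.04 ± 3.89 CPM in p16-null DMD (SD, n = 6) and 2.54 ± 0.511 CPM in WT (SD, n = 3). The log2 fold change of 1.26 ± 0.54 (SE) did not pass (edgeR adjusted p = 0.0638), and the groups overlapped. It passed with DESeq2 (1.22, adjusted p = 0.0316), by library totals (1.89, adjusted p = 0.00968) and when the lowest p16-null DMD library, replicate 1, or the next, replicate 4, was left out (1.44 and 1.42, adjusted p = 0.0192 and 0.0301). With RLE scaling it did not pass (1.21, edgeR adjusted p = 0.0691). Without the highest p16-null DMD library, replicate 3, the change was 0.96. Over the 12 fits with 1 library left out the edgeR adjusted p ran from 0.0192 to 0.161. At 18 against 3 months Aqp7 averaged 6.30 ± 2.21 CPM at 18 months and 4.59 ± 2.19 CPM at 3 months (SD, n = 3 each), and the change of 0.47 ± 0.38 did not pass (adjusted p = 0.432). It was 0.15 without WT 18 months replicate 3 and 0.83 without WT 3 months replicate 3, neither of which passed.

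Adipocyte transcripts varied within the p16-null DMD group, as Aqp7 did. The 12 adipocyte markers summed to 829, 1847, 2644, 756, 1246 and 1916 CPM in p16-null DMD replicates 1 to 6, and the 3 libraries with the most, replicates 2, 3 and 6, were those with the most Aqp7, though not in the same order. The DMD libraries had 1971 to 2019 CPM, with the lowest sum in replicate 1, which had the most Aqp7 of that group, and WT libraries had 1095 to 1293, 1083 to 1167 and 856 to 1042 CPM at 3, 9 and 18 months. In p16-null DMD against WT of 9 months 9 of the 12 rose and 1 fell (11 and 1 by library totals). With TMM 27.5% of all tested genes rose and 22.7% fell. The lipid droplet coat gene Plin1 averaged 66.3 ± 54.4 CPM in p16-null DMD and 5.81 ± 1.45 CPM in WT (log2 fold change 3.51 ± 0.78 SE, edgeR adjusted p = 0.00166), and the adipokine gene Cfd changed by 3.31 ± 0.51. The 1 that fell was Slc2a4, the insulin-dependent glucose transporter, which muscle fibres also express (-1.62 ± 0.17). Slc2a4 averaged 240 CPM in p16-null DMD and 739 CPM in WT of 9 months, so the sums of that WT group rest largely on it. By mean log2 CPM of the 12, p16-null DMD replicates 1 and 4 stood at 4.45 and 3.91. WT libraries of 9 months stood at 3.72 to 3.97, so replicate 1 lay above them by this mean and below by the sum. WT libraries of 3 and 18 months overlapped by this mean and not by the sum. Relative to the mean log2 CPM of the 12, Aqp7 stood at -3.20 ± 0.36 in p16-null DMD (SD, n = 6) and -3.84 ± 0.51 in DMD, against -1.48 ± 0.54, -2.45 ± 0.15 and -1.43 ± 0.36 in WT of 3, 9 and 18 months (SD, n = 3 each). The part of fat in the Aqp7 values was not tested.

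Genes of glycerol and triglyceride handling, the pathway that Aqp7 feeds, moved in both directions. Of 20 listed genes 18 had an entry and all 18 were tested. Gk, the glycerol kinase gene, and the fatty acid transporter gene Cd36 were not analysed here. In p16-null DMD against WT of 9 months 5 rose and 8 fell (7 and 4 by library totals, 9 and 3 in TPM). With TMM 27.5% of all tested genes rose and 22.7% fell. Gpd1, which makes glycerol 3-phosphate in the cytosol, averaged 255 ± 94.2 CPM in p16-null DMD (SD, n = 6) and 1115 ± 31.3 CPM in WT (SD, n = 3), a log2 fold change of -2.13 ± 0.23 (edgeR adjusted p = 4.3e-06). Gpd2, its mitochondrial partner, changed by -2.07 ± 0.27 and the phosphatidate phosphatase Lpin1 by -1.95 ± 0.21, while the lipid droplet protein gene Plin2 rose by 1.29 ± 0.16. At 18 against 3 months 3 rose and 4 fell (5 and 4 by library totals), with Gpd1 at -1.40 ± 0.14 and Plin2 at 1.68 ± 0.14. Against WT of 3 and 18 months 5 rose and 8 fell (7 and 5 by library totals), and between p16-null DMD and DMD none passed. Of all tested genes 9.31% rose and 10.1% fell with age, and 29.3% and 23.5% against WT of 3 and 18 months.

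Of the other aquaporins, 9 symbols with 10 entries, Aqp9 and Aqp11 passed the filter, and only in fits that hold dystrophic libraries. Aqp9, a glycerol-permeable channel known from liver, had 49, 0, 1, 18, 8 and 2 counts in the p16-null DMD libraries and 16, 19 and 23 counts in the DMD libraries, against 1 count in all in each WT group. Each WT group thus lay below the floor of 3 counts, and Aqp9 passed the filter only through dystrophic libraries. Its fold changes and p-values against WT, under any scaling, are therefore given as description and not as support. Against WT of 9 months Aqp9 was higher in p16-null DMD (log2 fold change 4.41 ± 1.77 SE, edgeR adjusted p = 0.0495), as it was against WT of 3 and 18 months (4.48 ± 1.21, adjusted p = 0.00403). The ratio of summed counts to WT of 9 months, scaled for depth, was 24.5 with a 95% interval of 4.28 to 981 that covers counting error only. In limma on log2(TPM + 1) the change against WT of 9 months was 0.73 and did not pass (adjusted p = 0.146). Most of the p16-null DMD counts came from replicate 1, and replicate 2 had none. The call against WT of 9 months was lost when replicate 1, 4 or 5 was left out, with changes of 3.04, 4.44 and 4.49 and adjusted p-values of 0.101, 0.0608 and 0.0583, while that against WT of 3 and 18 months was kept without any 1 of the 6 (adjusted p 0.00148 to 0.0216). Aqp11, an aquaporin of internal membranes, had 82 counts over p16-null DMD and 28 over DMD libraries, against 7, 8 and 17 over WT libraries of 3, 9 and 18 months, and did not pass with TMM in any comparison in which it was tested (1.59 ± 0.87, adjusted p = 0.143 in p16-null DMD against WT of 9 months). By library totals both Aqp9 and Aqp11 were called higher in p16-null DMD, against WT of 9 months and against WT of 3 and 18 months.

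A further 5 symbols had at most 7 counts in any group. These were Mip, the lens aquaporin, Aqp12a, Aqp3, Aqp8 and Aqp2, the channel of the kidney collecting duct. Aqp5 and both entries of Aqp6 were at 0 in all 18 libraries. A floor of 3 counts corresponds to 0.131 to 0.405 CPM in these libraries, so a lower level was not detectable at this depth.

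The order of the groups by level differed between the genes. For Aqp4 it ran in CPM from WT of 3 months over WT of 9 and WT of 18 months to p16-null DMD and DMD, and only the last neighbours overlapped. For Aqp1 all neighbours overlapped except WT of 18 months and p16-null DMD, and in TPM all neighbours overlapped. For Aqp7 the group means ran from 6.30 CPM in WT of 18 months to 2.54 CPM in WT of 9 months.

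Genes with the most similar profiles were named by the smallest root mean square difference of log2 CPM over the 18 libraries, each gene centred on its own mean, among 10120 candidates. For Aqp4 they included Cd24 (0.97), Ky (1.44), Asb10 (1.52) and the tubulin gene Tuba8 (1.54), beside an SD of 3.03 for Aqp4 itself. For Aqp1 they were Ndufaf5 (0.14), Dlst (0.16), Ndufaf3 (0.17), Ola1 (0.18) and Poldip2 (0.18), beside an SD of 0.56. Ndufaf5 and Ndufaf3 are assembly factors of respiratory complex I, and Dlst is an enzyme subunit of the citric acid cycle. For Aqp7 they were Fabp4 (0.46), the fatty acid binding protein of adipocytes, Akr1c14 (0.46), Sult1a1 (0.51), the triglyceride lipase gene Pnpla2 (0.51) and Fmo1 (0.53), beside an SD of 0.79. These profiles share libraries, groups and depth, and the likeness is a description.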

How the data were processed

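Total RNA of rat tibialis anterior sections was sequenced in 18 libraries (RNeasy mini kit, TruSeq kit, per the labels). The authors deposited expected counts and TPM per gene for 30560 entries. The expected counts are estimates that share out reads fitting several transcripts, and the deposited TPM values are scaled for length and library. RSEM 1.3.3, STAR 2.7.10b, Trimmomatic and FastQC, and the build mRatBN7.2, are named per the submitters' processing notes, without their order. Annotation release and strandedness: not given in the sources used here.

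Expected counts were rounded (4.50% of values were not whole), filtered with filterByExpr, scaled by TMM and tested with edgeR 4.0.16 quasi-likelihood tests in R 4.3.3, over all tested genes with Benjamini-Hochberg adjustment and a threshold of 0.05. The 3 groups of 9 months shared 1 fit, WT of 3 and 18 months a second, and p16-null DMD against WT of 3 and 18 months used a fit of all 18 libraries. CPM shown are scaled over all 18 libraries. Each SE of an edgeR log2 fold change is its absolute value divided by the square root of the F statistic of its test. It is not a separately fitted error. DESeq2 1.42.0, limma 3.58.1 on log2(TPM + 1) and log2(TPM + 0.1), RLE scaling, library totals, no filter, at least 5 CPM in 3 libraries, other sets of libraries in the fit, the replicate number as a block and leaving out each library were alternatives. Scripts were tested on simulated counts: in p16-null DMD against DMD, 52.0% of genes changed 2-fold and 80.8% of those changed 4-fold were recovered, among 14571 genes. Counting intervals are exact and at 95%. Entries without a gene symbol, 7162 in number, stayed in the fits.

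The members, the gene lists and the rule for named genes were chosen with earlier results of these data known. The rule names the 3 aquaporins, the other aquaporin entries, up to 4 genes of smallest p per list, and Dmd, Kcnj10, Gk and Pecam1; some genes it names are not reported here. Trpv4 and Utrn were named after their values were seen, to complete a count. Myh1, Atp2a1, Pvalb and some other listed markers were not analysed here. Replicates were distinct libraries: every pair within a group differed by more than counting noise.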

Additional observations from a re-analysis of the deposited data

Results flagged for a closer look

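Aqp9 in p16-null DMD replicate 1 stood apart from the other libraries of its group, at 3.82 CPM (49 counts) against 0 to 0.785 CPM in the other 5. With 5 aquaporin genes examined, this was the 1 value set apart: the gap to the nearest library was 0.794 of the whole range of the group. This gap test was applied only to the p16-null DMD group, the one with more than 3 libraries, and chance flags about 1 in 20 groups.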

How the results depend on the processing

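The Aqp4 calls held in p16-null DMD against WT of 9 months, against WT of 3 and 18 months and at 18 against 3 months under each alternative run, with log2 fold changes of -5.97 to -4.07, -5.23 to -3.52 and -1.82 to -1.42 (adjusted p up to 9.17e-05, 2.78e-06 and 0.0415), and with each library left out. Scaling moved the other aquaporins, through the median gene given in the report. In p16-null DMD against WT of 9 months Aqp1 was not called in limma on log2(TPM + 0.1) either (-0.28, adjusted p = 0.154), and Aqp7 was also called in a single fit of 18 libraries (adjusted p = 0.0479) and in TPM (0.0151 and 0.0175). The sign of Aqp1 at 18 against 3 months turned by library totals (0.0602) and in TPM (0.19 with either pseudocount). In p16-null DMD against DMD the sign of Aqp7 turned in TPM (-0.15 and -0.20), and Aqp7 ran from -0.25 to 0.39 and Aqp1 from -0.00725 to 0.18 with 1 library left out, all uncalled. Aqp4 there ran from 0.50 without p16-null DMD replicate 4 to 1.62 without DMD replicate 1, also uncalled. Aqp7 against WT of 3 and 18 months ran from -0.12 to 0.36 with 1 library left out.

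In p16-null DMD against DMD the 1 gene called became 15 with DESeq2 and 2 in limma on log2(TPM + 0.1). With 1 library left out the count ran from 1 to 85, with 85 when DMD replicate 1 was left out and 2 when either DMD replicate 3 or replicate 2 of p16-null DMD was. At 18 against 3 months the 2622 called became 1742 in a single fit of 18 libraries and 1696 to 2415 with 1 library left out, 1696 without WT 18 months replicate 1. The cause was not tested. The split of calls turned strongly to higher by library totals: 8071 higher and 1251 lower against 4073 and 3359 with TMM in p16-null DMD against WT of 9 months, 7691 and 1240 against 3914 and 3228 in DMD against WT, 7625 and 1673 against 4392 and 3515 in p16-null DMD against WT of 3 and 18 months, and 2609 and 652 against 1256 and 1366 at 18 against 3 months. In TPM it was 8850 and 961, 8079 and 1023, 9261 and 1089, and 2848 and 325 in that order.

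Replicate numbers did not pair the samples: correlations of same-numbered deviations ran from -0.22 to 0.13. With the replicate number as a block, calls were 0 in p16-null DMD against DMD with edgeR, 6100 in p16-null DMD against WT of 9 months, 6476 in DMD against WT, 2906 at 18 against 3 months and 6662 against WT of 3 and 18 months. Without the block 764 of 14801 genes had an unadjusted p under 0.05 in the first of these, near the share expected by chance. Aqp1 there turned to -0.21 under the block. The Aqp9 values with a library left out were chosen after seeing the data. Depth limits low values: the lowest library held 12 counts of Aqp4 and 16 of Aqp7, and Aqp9 and Aqp11 had libraries at 0.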
